A study of Mus musculus with 6 samples.

Results

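Voltage-gated sodium channels open when a muscle or nerve cell is depolarised and let in the sodium current that carries the upstroke of the action potential. Each channel is built around a large pore-forming alpha subunit, and smaller beta subunits with a single membrane span attach to it and alter its gating and its delivery to the cell surface. The 6 genes described here were picked from the family by symbol, with earlier results of these data known, out of 43629 genes counted in each sample. They comprise 3 alpha subunit genes, Scn4a, Scn7a and Scn10a, and 3 beta subunit genes, Scn2b, Scn3b and Scn4b. Other genes of the family were not analysed here.

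RNA was sequenced from the left ventricle of 6 male CD-1 mice at 1 year of age, with 3 mice per treatment. CD-1 is an outbred strain. Exposure was in utero: the dams received a daily intraperitoneal injection of normal saline (vehicle) or of 20 mg/kg caffeine in pregnancy, from embryonic day (E) 6.5 to E9.5 by one field of the labels, with the last day given as E10.5 in another. The comparison asks whether this exposure in the embryo was followed by different subunit mRNA levels in the adult ventricle. Which dam each mouse came from is not stated. The p-values treat the hearts as independent, and they may be too small if hearts of a treatment came from littermates.

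The libraries held 9228359 to 10483101 counts in the vehicle group and 7613011 to 9153997 in the caffeine group, so each caffeine library was the shallower. Levels are given as CPM, counts scaled to a common library total with TMM factors, and levels of different genes are compared only as CPM per kilobase of exon. At these depths 3 counts, the smallest number taken as detection, stand for 0.286 to 0.394 CPM. These are bulk samples, in which fewer cells of a type and less RNA per cell cannot be told apart. The markers of ventricular muscle, the labelled tissue, summed to 67334 to 76188 CPM in the vehicle group and to 67828 to 71746 CPM in the caffeine group, while Myh1 and Myh4, myosins of skeletal muscle, had no count in any heart.

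The 6 genes differ in size and place. The 3 alpha genes lie on separate chromosomes of GRCm38. Scn4a (ENSMUSG00000001027) spans chr11:106318592-106353288, Scn7a (ENSMUSG00000034810) spans chr2:66673425-66784914 and Scn10a (ENSMUSG00000034533) spans chr9:119608456-119719322, all on the minus strand. The 3 beta genes described here all lie on the plus strand of chromosome 9. Scn3b (ENSMUSG00000049281) spans chr9:40269217-40291618, Scn2b (ENSMUSG00000070304) spans chr9:45117782-45130070 and Scn4b (ENSMUSG00000046480) spans chr9:45138395-45154152. Only 8324 bases separate the end of Scn2b from the start of Scn4b. The summed exon length is 7041 to 7966 bases in the alpha genes and 4656 to 5461 bases in the beta genes. No exonic base of any of the 6 is shared with another gene of the annotation.

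The sequence just upstream of the RefSeq start site (GRCm38.p6) is shown for Scn4a and Scn7a, the most abundant of the 3 alpha genes described here. Their levels are set against each other in the values that follow. Neither gene passed the test between treatments. Each line runs 5′ to 3′ on the minus strand and leaves out every base that the annotation places in an exon of the gene. The first, chr11:106349391-106349454, lies inside the Scn4a gene, whose annotated span begins further upstream. The second, chr2:66784915-66785160, ends at the edge of the Scn7a gene.
Scn4a: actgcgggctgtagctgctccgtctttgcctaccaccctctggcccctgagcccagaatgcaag
Scn7a: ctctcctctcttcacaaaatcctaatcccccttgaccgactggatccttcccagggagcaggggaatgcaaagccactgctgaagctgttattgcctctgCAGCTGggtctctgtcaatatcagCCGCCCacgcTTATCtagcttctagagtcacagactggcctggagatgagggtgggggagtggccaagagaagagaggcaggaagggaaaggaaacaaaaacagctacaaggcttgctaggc
Capitals mark, in order, an E-box (CANNTG), a GC box (GGGCGG) and a GATA motif (GATAA), the last 2 on the opposite strand. Both strands of the 250 bases before each RefSeq start were searched for these and for the T-box core GGTGTG, the MEF2 consensus and the CArG box, and no match overlapped another. Of 32851 promoter windows, 66.2% hold the E-box, 32.7% the GC box, 22.6% the GATA motif, 16.3% the T-box core, 2.9% the MEF2 consensus and 1.5% the CArG box. The windows of Scn4a, Scn10a and Scn4b hold none of the 6, and that of Scn2b holds the E-box at 2 places. The Scn4b window is the richest in CpG, with 23 against a median of 6, and the Scn2b window has 1. Annotated exons of the same gene cover 250 of the 250 bases for Scn10a, 229 for Scn4b, 186 for Scn4a, 94 for Scn2b and 4 for Scn7a. The motif and CpG counts of these windows therefore describe exon as well as upstream sequence. For Scn10a, the bases just after the RefSeq start were not found in an annotated transcript of the gene.

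Of the alpha genes, Scn4a encodes Nav1.4, the main sodium channel of skeletal muscle. Its level was 40.4, 46.7 and 37.4 CPM in the vehicle-treated hearts and 28.4, 32.6 and 25.4 CPM in the caffeine-treated hearts. Each caffeine-treated heart was below each vehicle-treated heart. The means were 41.5 ± 4.72 CPM (SD, n = 3) and 28.8 ± 3.60 CPM (SD, n = 3), a log2 fold change of −0.52 (standard error 0.13, 95% interval −0.80 to −0.25). The unadjusted p was 0.00157 in edgeR's quasi-likelihood test, rank 102 of the 13092 genes tested, and the adjusted p was 0.199. Scn4a therefore missed the study's thresholds, an adjusted p below 0.05 and a fold change above 1.5. In edgeR's exact test its adjusted p was 0.0381, and with no filter on low counts it was 0.00222, but its log2 fold changes there, −0.52 and −0.55, were still short of 1.5-fold. Leaving out each heart in turn gave log2 fold changes from −0.63 to −0.43.

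Scn7a encodes Nax, an atypical member of the family that is known as a sensor of extracellular sodium. It had 22.5, 20.4 and 18.2 CPM in the vehicle-treated hearts and 26.7, 25.5 and 24.3 CPM in the caffeine-treated hearts. The order is the reverse of that of Scn4a, with each caffeine-treated heart above each vehicle-treated heart. The mean was 20.4 ± 2.12 CPM (SD, n = 3) with vehicle and 25.5 ± 1.23 CPM (SD, n = 3) with caffeine, and the log2 fold change was 0.32 (standard error 0.12, 95% interval 0.06 to 0.59). Its unadjusted p of 0.0216 became 0.439 after adjustment in the same edgeR test, and over the other tests, scalings and filters the adjusted p ran from 0.432 to 0.820. The unadjusted p was 0.0812 without vehicle replicate 3, 0.0595 without caffeine replicate 1 and 0.0711 when scaled by library size only.

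Scn10a encodes Nav1.8, a channel best known from sensory neurons and from nerve cells and conducting tissue of the heart. It was counted in few reads, with 28, 30 and 30 reads in the vehicle-treated hearts and 6, 13 and 18 reads in the caffeine-treated hearts. These counts are 2.74, 2.84 and 3.04 CPM against 0.840, 1.47 and 2.11 CPM, and the groups did not overlap. The vehicle-treated hearts were close together and the caffeine-treated hearts were spread out, with coefficients of variation of 5.38% and 43.1%. Counting error alone gives 18.5% and 28.5% at these depths. The log2 fold change was −0.93 (standard error 0.33, 95% interval −1.66 to −0.21), with an unadjusted p of 0.0165 and an adjusted p of 0.407 in edgeR's quasi-likelihood test. The interval runs from a fall to 0.316 of the vehicle level to one to 0.866 of it. Caffeine replicate 1 held the fewest reads, and without it the log2 fold change was −0.68 (unadjusted p = 0.0613).

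Of the beta genes, Scn4b encodes beta-4, a subunit linked to its alpha partner by a disulfide bond. It was the most abundant of the 6, per kilobase of exon as well, at 171, 180 and 260 CPM in the vehicle-treated hearts and 197, 200 and 190 CPM in the caffeine-treated hearts. The caffeine-treated hearts all lay inside the range of the vehicle-treated hearts. The means were 204 ± 49.0 CPM (SD, n = 3) and 196 ± 4.98 CPM (SD, n = 3). On the log2 scale the difference was −0.06 (SE 0.14, adjusted p = 0.950, edgeR). The 95% interval ran from 0.775 to 1.19 of the vehicle level. The direction rested on vehicle replicate 3, the highest heart, and without it the log2 fold change was 0.16 (adjusted p = 0.696).

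Scn3b encodes beta-3, which attaches to the alpha subunit without a covalent bond. It was counted in 8, 18 and 15 reads with vehicle and in 16, 26 and 21 reads with caffeine. In CPM these were 0.782, 1.70 and 1.52 against 2.24, 2.93 and 2.46, and each caffeine-treated heart was above each vehicle-treated heart. The log2 fold change was 0.93 (standard error 0.34, 95% interval 0.19 to 1.67), with an unadjusted p of 0.0189 and an adjusted p of 0.422 by the edgeR quasi-likelihood fit. Without vehicle replicate 1, the lowest heart, it was 0.66 (unadjusted p = 0.0752).

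Scn2b encodes beta-2, the other disulfide-linked beta subunit. It had 7, 8 and 10 reads in the vehicle-treated hearts and 5, 8 and 10 reads in the caffeine-treated hearts, and was the only one of the 6 below the filter on low counts. Its levels were 0.684, 0.757 and 1.01 CPM against 0.700, 0.903 and 1.17 CPM, and the groups overlapped. With no filter its log2 fold change was 0.17 with a standard error of 0.52 (adjusted p = 0.968, edgeR), so a difference was not detectable at this depth.

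**Figure D1:**
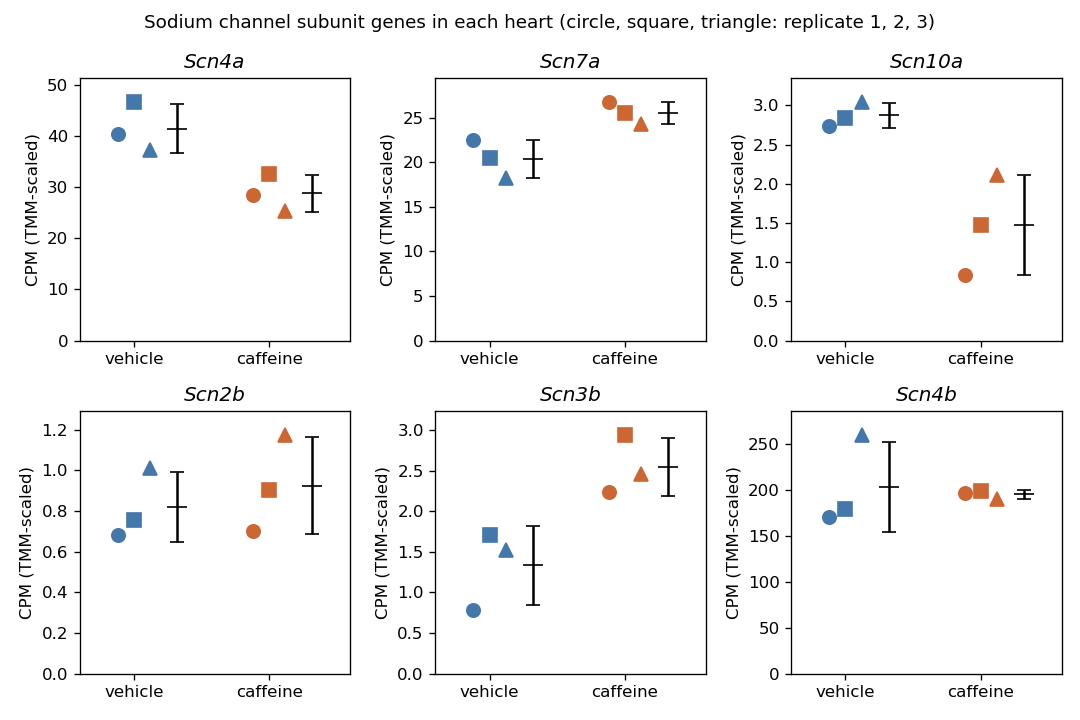
TMM-scaled CPM of the 6 subunit genes in each heart (points, blue for vehicle and orange for caffeine) with the mean and SD of each group of 3 (black). The groups are apart for Scn4a, Scn7a, Scn10a and Scn3b, and they overlap for Scn2b and for Scn4b, where vehicle replicate 3 stands at 260 CPM.

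None of the 5 tested genes was past both thresholds (0 of 5) in edgeR's quasi-likelihood test, against 0.107% of all 13092 genes, 0.084% higher and 0.0229% lower. The count was also 0 with edgeR's exact test, DESeq2 and limma-voom. At an unadjusted p below 0.05 the quasi-likelihood test held 4 of the 5, namely Scn4a and Scn10a on the lower side and Scn7a and Scn3b on the higher side, where 8.82% of all genes tested had such a p (4.4% lower and 4.42% higher). DESeq2 held 3 at that level, edgeR's exact test 4 and limma-voom 4. The count was 3 with library size only, 2 without caffeine replicate 1, and 3 without vehicle replicate 1, vehicle replicate 3 or caffeine replicate 2. Vehicle-treated and caffeine-treated hearts were fully apart for the same 4 genes, 2 lower and 2 higher, as they were for 14.2% of all genes, 7.12% lower and 7.11% higher. The subunit genes were chosen with earlier results of these data known. Neither count, set against the share of all genes, is therefore evidence that the subunits as a set differ. An exact two-sided permutation test of each gene alone gave p = 0.1 for the 4, the smallest that 3 hearts against 3 can give, p = 1 for Scn4b and p = 0.6 for Scn2b.

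**Figure D2:**
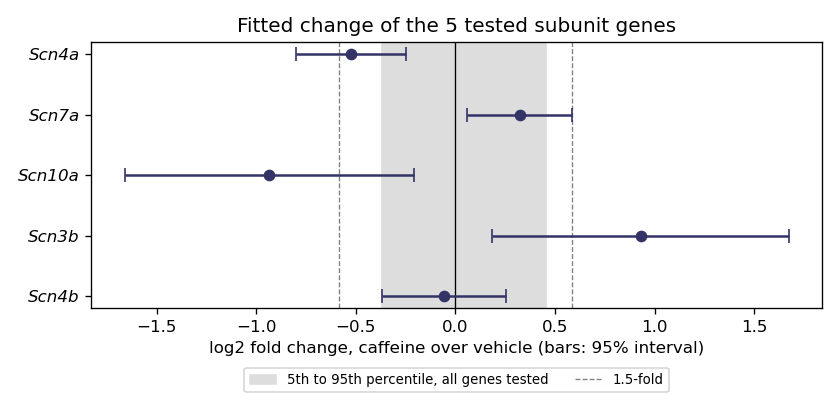
Log2 fold change (caffeine over vehicle) of the 5 tested genes with 95% intervals, beside the 5th to 95th percentile of all genes tested (grey, −0.37 to 0.45) and 1.5-fold (dashed). Scn4a and Scn10a lie below the grey band, Scn3b above it, and Scn7a and Scn4b inside it.

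Per kilobase of exon, the order of levels over the 6 hearts was Scn4b, Scn4a, Scn7a, Scn3b, Scn10a and Scn2b. Scn4b averaged 40.1 ± 6.31 CPM per kilobase (SD, n = 6), more than 91.9% of 13045 tested genes with a length. Scn4a averaged 4.99 ± 1.12 and Scn7a 3.13 ± 0.437 CPM per kilobase, near the middle of all genes. Scn3b (0.355 ± 0.140), Scn10a (0.273 ± 0.109) and Scn2b (0.187 ± 0.0418 CPM per kilobase) were at the low end. Scn4b was 5.44 to 10.6 times the level of Scn4a in the same heart, and Scn7a was 6.47 to 21.4 times the level of Scn3b. Scn4a was above Scn7a in 6 of 6 hearts, although their ranges overlapped. The last 3 places were not apart, because Scn10a was above Scn3b in the 3 vehicle-treated hearts and below it in the 3 caffeine-treated hearts.

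The levels of the 3 alpha genes can also be read as shares of their sum, which leaves out the alpha genes not analysed here. These shares restate the values of Scn4a and Scn7a above and are no further evidence of a difference. Scn4a held 62.8% to 67.8% of the summed alpha level per kilobase with vehicle and 50.3% to 55.9% with caffeine. Scn7a held 28.5% to 33.5% with vehicle and 41.9% to 46.8% with caffeine. Neither share overlapped between the treatments. The share of Scn10a, 3.65% to 4.67% with vehicle and 1.35% to 3.69% with caffeine, overlapped at its edge. The ratio of Scn4a to Scn7a, a measure chosen after the values of both genes were seen, does not depend on how the libraries are scaled. It was 1.88, 2.38 and 2.14 in the vehicle-treated hearts and 1.11, 1.33 and 1.09 in the caffeine-treated hearts. Means were 2.13 ± 0.251 (SD, n = 3) and 1.18 ± 0.135 (SD, n = 3). The lack of overlap follows from that of the 2 genes in opposite directions, so no test is given. The summed alpha level was 9.03 ± 0.803 CPM per kilobase (SD, n = 3) with vehicle and 7.76 ± 0.554 CPM per kilobase (SD, n = 3) with caffeine, and there the groups overlapped (exact permutation p = 0.2).

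The summed level of the 3 beta genes was almost wholly Scn4b, which held 98.2% to 99.2% of it. This sum and that of the alpha genes leave out the rest of the family. Their ratio is therefore not that of all beta to all alpha subunits of the heart. The ratio of beta to alpha levels per kilobase was 3.79, 3.74 and 6.45 with vehicle and 5.16, 4.92 and 5.41 with caffeine. The caffeine-treated hearts fell between the vehicle-treated hearts. The difference of 0.20 on the log2 scale was smaller than the spread between the vehicle-treated hearts (exact permutation p = 0.4). It rested on single hearts. Without vehicle replicate 3 it was 0.45 and the treatments no longer overlapped, and it was 0.07 without vehicle replicate 1 and 0.06 without vehicle replicate 2.

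**Figure D3:**
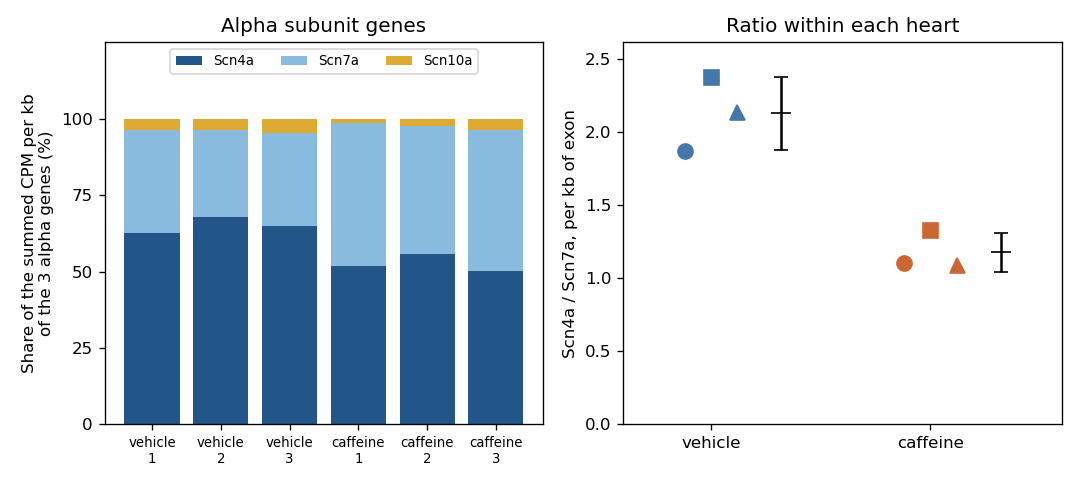
Left, the share (%) of Scn4a, Scn7a and Scn10a in the summed level per kilobase of these 3 alpha genes in each heart. Right, the ratio of Scn4a to Scn7a in each heart (points) with the mean and SD of each group of 3. The ratio is 1.88 or more in the vehicle-treated hearts and 1.33 or less in the caffeine-treated hearts.

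Proteins that bind the channel, or act on it in other ways, bear on its gating, anchoring and turnover. Of 17 such partner genes 15 were tested, and the number past the thresholds was 0 in edgeR's quasi-likelihood fit, in its exact test and in DESeq2. At an unadjusted p below 0.05 there were 2, where 8.82% of all genes had such a p. Of the 15 genes, 5 had a log2 fold change above 0 and 10 below, with a median of −0.05 against 0.00 over all genes tested. The 2 genes under that p both encode fibroblast growth factor homologous factors, proteins that stay inside the cell and bind the tail of the alpha subunit. Fgf13 was at 71.7, 67.2 and 73.8 CPM with vehicle and at 54.3, 62.3 and 58.0 CPM with caffeine. The groups did not overlap, and the difference was −0.28 on the log2 scale (SE 0.09, adjusted p = 0.351, edgeR). Fgf14, with 60 reads over the 6 hearts, was at 1.37, 1.61 and 1.52 CPM against 0.280, 0.903 and 0.469 CPM, again without overlap, and differed by −1.38 (log2, SE 0.42, adjusted p = 0.324). Fgf11 overlapped (log2 fold change −0.64, adjusted p = 0.684), and Fgf12, with 30 reads over the 6 hearts, was below the filter.

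Among the other partners, Ank3 encodes ankyrin-G, which anchors the channel, and Ptpn3 a tyrosine phosphatase. Both were lower in each caffeine-treated heart, with log2 fold changes of −0.17 and −0.19. Slmap encodes a sarcolemmal membrane protein and was higher in each caffeine-treated heart, by 0.08 on the log2 scale. The smallest adjusted p of these 3 was 0.630 in the edgeR test, for Ptpn3. In all, the hearts did not overlap for 4 partner genes on the lower side and 1 on the higher side, against 7.12% and 7.11% of all genes.

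Sodium that enters through the channels is moved out again by the sodium pump and exchangers. Of 13 transporter genes 12 were tested, 0 passed the thresholds by either edgeR test or by DESeq2, and 1 had an unadjusted p below 0.05 in the quasi-likelihood fit, against 8.82% of all genes. The median log2 fold change was −0.08, over a range from −0.30 to 0.33. That gene was Fxyd5, a regulator of the pump, at 20.0, 20.8 and 21.1 CPM with vehicle and at 32.5, 22.2 and 23.6 CPM with caffeine (log2 fold change 0.33, adjusted p = 0.561). Slc4a7, a sodium bicarbonate cotransporter, was lower in each (−0.11, adjusted p = 0.832).

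Marker genes of other cell types were read beside the subunits, since Scn10a, Scn7a and Scn4a can each come from cells other than working myocytes. Of 9 conduction system markers 7 were tested. The log2 fold change was below 0 for 6 of the 7, with a median of −0.39, and their summed level was 100.5 to 105.5 CPM with vehicle and 71.7 to 80.6 CPM with caffeine. Named after their values were seen, Cntn2, Hcn4 and Irx3 were lower in each caffeine-treated heart, as were 7.12% of all genes tested. Their log2 fold changes were −3.12, −1.12 and −0.39 (adjusted p = 0.0584, 0.102 and 0.348, edgeR). The other tested markers, Gja5, Etv1, Id2 and Kcne1, overlapped, at −0.05, −0.33, 0.02 and −0.42 on the log2 scale. The part of conduction tissue in the lower Scn10a and Scn4a levels was not tested. Of 6 neuronal markers 3 were tested, Th had no count in any heart, and the summed level was 27.9 to 41.5 CPM with vehicle and 20.9 to 30.9 CPM with caffeine. Dbh, the noradrenaline-making enzyme of sympathetic nerves and also named after its values were seen, was at 17.0, 18.8 and 22.0 CPM with vehicle and at 12.6, 9.26 and 6.10 CPM with caffeine, without overlap (log2 fold change −1.06, adjusted p = 0.134, edgeR). Stmn2 and Uchl1, the other tested neuronal genes, overlapped, at 0.02 and 0.19 on the log2 scale. Among the 6 neuronal markers only Dbh had a lower mean with caffeine. The lower neuronal sum was therefore that of Dbh and not a shared change of the markers. The part of nerve cells in the Scn10a level was not tested. Of 9 skeletal muscle markers none reached the filter. They summed to 1.32 to 2.23 CPM with vehicle and to 0.235 to 0.677 CPM with caffeine, and their part in the Scn4a level was not tested.

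The 5 fibroblast markers all had a log2 fold change above 0, with a median of 0.26, and summed to 678 to 782 CPM with vehicle and 832 to 989 CPM with caffeine. None was past the thresholds, and 3 had an unadjusted p below 0.05, all on the higher side, against 4.42% of all genes on that side. Their log2 fold changes had the sign of that of Scn7a, as did those of the 4 macrophage markers (median 0.27). The part of either cell type in the Scn7a level was not tested. The 4 endothelial markers summed to 518 to 594 CPM with vehicle and 528 to 569 CPM with caffeine. The 6 Schwann cell markers, of which 2 were tested, summed to 12.3 to 13.5 CPM with vehicle and 10.9 to 17.2 CPM with caffeine. Sums were 94.4 to 147 and 95.9 to 114 CPM for 4 smooth muscle markers, 38.6 to 57.3 and 45.9 to 71.0 CPM for 4 macrophage markers, and 32.2 to 40.8 and 23.7 to 27.4 CPM for 5 atrial markers, vehicle first. In the atrial sum nearly all reads were those of Tbx5, a transcription factor gene, likewise named after its values were seen. Tbx5 was lower in each caffeine-treated heart (log2 fold change −0.53, adjusted p = 0.193, edgeR). Of the other atrial markers, Myl7, Sln and Bmp10 had 6, 4 and 4 reads over the 6 hearts and were below the filter. Myl4 overlapped (log2 fold change −0.26). The atrial sum is therefore mainly a Tbx5 level and no measure of atrial tissue.

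**Figure D4:**
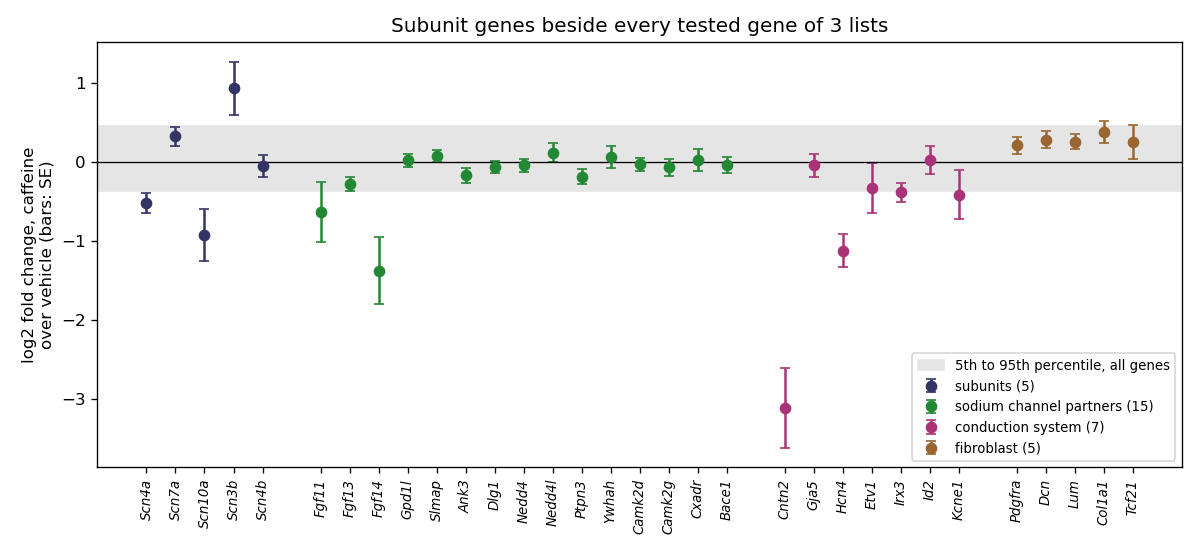
Log2 fold change (caffeine over vehicle, bars: standard error) of the 5 tested subunit genes, 15 partner genes, 7 conduction system markers and 5 fibroblast markers, with the 5th to 95th percentile of all genes in grey. Scn10a, Scn4a and Scn4b lie below 0, as do 10 of the 15 partner genes and 6 of the 7 conduction system markers, with Gja5 at −0.05. Scn7a, Scn3b, 5 partner genes, Id2 (0.02) and the 5 fibroblast markers lie above 0.

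The genes with the most similar pattern were found by the root mean square difference of centred log2 CPM over the 6 hearts, among 13091 other genes. With so many genes and 6 hearts, close matches occur for any pattern. For Scn4a they were Gm16316 (difference 0.05) and Pdzrn3 (0.07), for Scn7a Col4a1 (0.03) and Ttll11 (0.04), and for Scn4b Gapdh (0.05) and Fbxo22 (0.05). For Scn10a they were Gm10435 (0.14) and Rtn4rl1 (0.16), and for Scn3b Adam19 (0.14) and Gm18737 (0.15). The SD of the subunit's own log2 level over the 6 hearts was 0.32 for Scn4a, 0.21 for Scn7a, 0.21 for Scn4b, 0.63 for Scn10a and 0.59 for Scn3b, so the larger differences belong to the genes that varied most.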

How the data were processed

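Left ventricular poly(A) RNA of 6 mice was sequenced as single-end reads. Per the labels and the methods, the authors ran FastQC on the reads, used TopHat2 to align them to mm10 (GRCm38), and obtained counts per Ensembl gene from HTSeq. The deposited values are these raw counts, 1 file per heart, without normalization or pooling. The tool versions and the strand setting are not given in the sources used here.

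From the counts, genes were filtered with filterByExpr (minimum count 10, total 15), which left 13092, scaled by TMM (factors 0.940 to 1.07) and fitted with glmQLFit and glmQLFTest of edgeR 4.0.16 in R 4.3.3, with treatment as the only term. Adjusted p-values are Benjamini-Hochberg values over all genes tested. The standard error is the absolute log2 fold change over the square root of F. DESeq2 1.42.0 and limma 3.58.1 served as alternatives, and all fits were tested on simulated data. Replicates of a treatment differed by more than sampling noise (chi-square per degree of freedom 5.37 to 14.0). Symbols, positions and exon lengths came from GENCODE M21, which matched 42548 of 43629 identifiers, and upstream sequences of 5 of the 6 genes from the RefSeq table of GRCm38.p6. Named genes were the 6 subunits and the 2 genes nearest in pattern to each tested subunit. Partner and transporter genes past the thresholds or without overlap, the Fgf11 to Fgf14 genes, and markers at 0 or past the thresholds were named. Cntn2, Hcn4, Irx3, Gja5, Etv1, Id2, Kcne1, Tbx5, Myl4, Myl7, Sln, Bmp10, Dbh, Stmn2 and Uchl1 were added after their values were seen. The members and lists were chosen with earlier results of these data known, and 1 partner gene and 1 marker are not reported here. Intervals cover the spread between hearts, and the detection floor covers counting error only.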

Additional observations from a re-analysis of the deposited data

How the results depend on the processing

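With any of the planned tests, scalings and filters, and without any 1 heart, 0 of the subunit genes were past both thresholds, and 67 of 68 refitted log2 fold changes kept their sign. The exception was Scn4b without vehicle replicate 3 (0.16, range without 1 heart −0.17 to 0.16). Scn10a and Scn3b could not be fitted with at least 10 counts required in every heart. The counts over all genes, 11 higher and 3 lower in caffeine, were far less stable. They were 61 and 33 in edgeR's exact test, 39 and 28 in DESeq2, 145 and 95 with no filter, and 12 and 15 with library size only. Without 1 heart they ran from 4 to 17 higher and from 0 to 13 lower. Higher and lower counts were 17 and 10 without vehicle replicate 1, 4 and 0 without vehicle replicate 2, 7 and 1 without caffeine replicate 1, and 4 and 0 without caffeine replicate 3. The lower count was 13 without vehicle replicate 3 and 7 without caffeine replicate 2. With the replicate number as a block they were 29 and 11. The numbers were not taken to pair the hearts: deviations of same-numbered hearts correlated by 0.05, −0.03 and −0.04 across genes, not every heart correlated best with its own number, and the block gave no subunit call. Depth limits Scn2b, Scn3b and Scn10a, each with 30 reads or fewer in any heart. The log2 difference in the beta to alpha ratio kept its sign, from 0.06 to 0.45 without 1 heart.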
